A study of Homo sapiens with 9 samples.

Results

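The mRNA of PERK knockout U2OS cells kept on palbociclib was set against that of wild-type U2OS cells kept on vehicle. U2OS is an established human osteosarcoma line, and the knockout is a derivative of it made with CRISPR/Cas9; the labels do not say whether the derivative is 1 clone or a pool. The wild-type vehicle group (WT, vehicle) and the knockout group (PERK-KO, palbociclib for 4 days) each had 3 libraries, chosen by their titles, so that 6 of the 9 libraries of the series entered the comparison. The remaining 3 libraries, wild-type cells on palbociclib for 4 days, are given beside it as a step between the ends. Both compared groups differ in genotype and in drug at once, and no knockout library on vehicle was analysed here, so that in the main comparison the share of each cannot be told apart. The path from one end to the other is therefore also given in 2 steps: the drug step (wild type, palbociclib against vehicle) and the knockout step (on palbociclib, knockout against wild type). The drug step holds for wild type only. In the knockout step, a difference already present without drug and a changed response to drug cannot be told apart. The steps put the groups in order and are not a course in time. The log2 fold changes of both steps add up to the main one by construction, and each step shares 3 libraries with it.

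PERK, encoded by EIF2AK3, is a kinase in the membrane of the endoplasmic reticulum (ER). When unfolded proteins collect in the ER it phosphorylates the translation factor eIF2α, which slows general translation and favours translation of the transcription factor ATF4, whose targets include genes of amino acid transport, tRNA charging and stress signalling. This programme, which other kinases of eIF2α can also start, is called the integrated stress response. The drug palbociclib blocks CDK4 and CDK6, the partners of the D-type cyclins; these kinases phosphorylate the retinoblastoma protein, which otherwise holds back the E2F factors and with them the genes of DNA replication.

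Total counts per library ran from 33674039 to 42577874, and 19408 genes passed the filter on low counts, of 70116 gene IDs in the table. Levels are CPM, counts scaled by the library total times the library's TMM normalization factor. A gene is said to rise or fall where the edgeR quasi-likelihood test gave a Benjamini-Hochberg adjusted p under 0.05 over all tested genes. Libraries carry set numbers 1 to 3 in their labels, with no word on what a set is or whether sets are separate cultures, so the p-values take the library-to-library spread as their error, and that spread may be technical. Same-numbered libraries deviated together, and 8.07% of all tested genes differed between sets. Of 15 mesenchymal and osteosarcoma markers, 2 were under 1 CPM in every library (NT5E and TWIST1). The 15 summed to 6840 to 7450 CPM on vehicle and 10800 to 13200 CPM in the knockout, with 10500 to 12100 CPM in wild type on palbociclib. Much of this sum was COL1A1 (mean of 2460 to 4520 CPM) and SPARC (1730 to 3080 CPM), whereas RUNX2 (-0.29) and S100A6 (-0.20) fell. On vehicle and in the knockout, the 15 haematopoietic markers summed to 10.6 to 11.5 and 10.4 to 13.5 CPM, with CD3E and HBB at 0 in all libraries. The 11 endothelial markers summed to 13.9 to 15.1 and 18.6 to 20.1 CPM, and the 15 epithelial markers to 670 to 701 and 581 to 603 CPM, with CLDN7 at 0. In bulk RNA, fewer cells of a type and less RNA per cell cannot be told apart.

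EIF2AK3 (ENSG00000172071.15, chromosome 2, 88556741 to 88627576 on GRCh38, protein coding) checks the labels. It read 31.7, 34.8 and 32.8 CPM in the vehicle libraries and 19.7, 18.7 and 17.8 CPM in the knockout libraries, with no overlap. The log2 fold change was -0.82 ± 0.068 (SE; adjusted p = 5.05e-09), so the mRNA was lower in the libraries labelled knockout but was not lost. These data do not measure PERK protein, and the edited site is not given in the sources used here. The wild-type libraries on palbociclib read 35.7, 36.8 and 31.8 CPM.

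From one end to the other, 4983 genes rose (25.7% of those tested) and 5053 fell (26%). Of these, 1175 rose at least 2-fold (6.05%) and 564 fell at least 2-fold (2.91%). All knockout libraries lay above all vehicle libraries for 5598 genes (28.8%) and below them for 5763 (29.7%). The median log2 fold change was -0.01, with the 5th percentile at -0.83 and the 95th at 1.11. Among 13819 protein-coding genes 3942 rose and 4298 fell, and among 3183 long noncoding genes 681 rose and 425 fell.

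**Figure D1:**
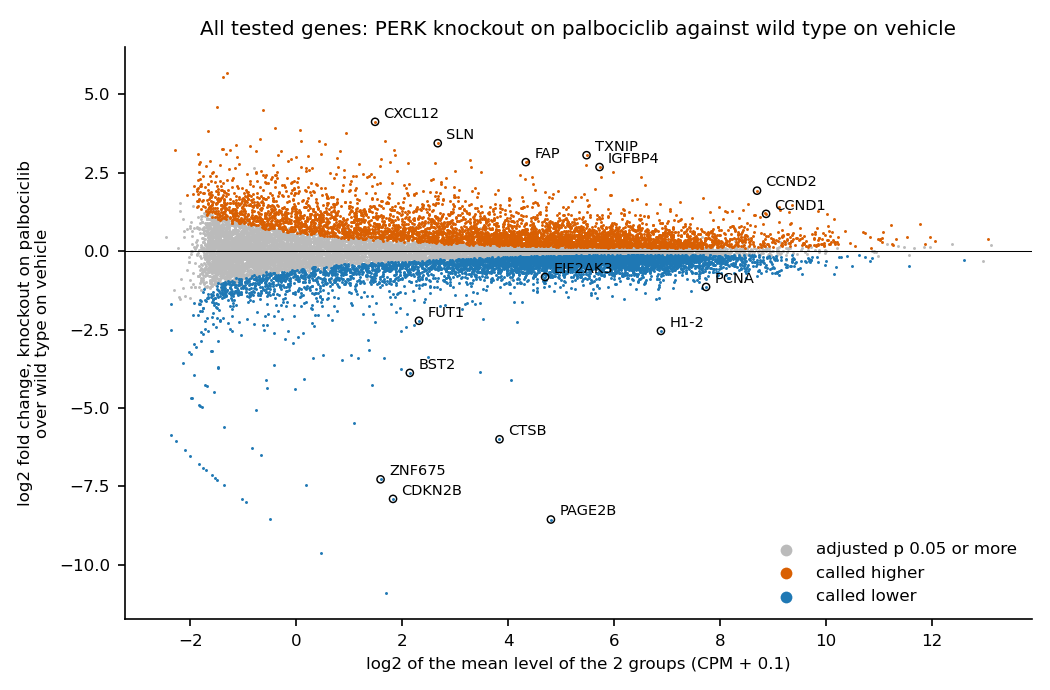
Each point is 1 of the 19408 tested genes. The x axis is the log2 of its mean level in both groups (CPM + 0.1) and the y axis its log2 fold change, knockout on palbociclib over wild type on vehicle; orange and blue mark genes called higher and lower, and 16 genes of the text are circled. The losses of PAGE2B, CDKN2B, ZNF675 and CTSB reach further from 0 than the gains of CXCL12 and SLN.

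The axis that palbociclib acts on moved in both directions. Of 20 tested genes of the D-type cyclins, CDK4/6, their inhibitors and the retinoblastoma family, 6 rose and 12 fell. CCND2, encoding cyclin D2, rose from 176, 181 and 163 CPM to 672, 659 and 653 CPM (log2 fold change 1.93 ± 0.050, adjusted p = 1.58e-16). Every knockout library was above every vehicle library, and the wild-type libraries on palbociclib (527, 523 and 525 CPM) lay between them. CCND1, encoding cyclin D1, rose from 285, 292 and 281 to 640, 664 and 653 CPM (1.19 ± 0.046), and its level on palbociclib was alike in wild type (671, 651 and 673 CPM; knockout step -0.03 ± 0.046, adjusted p = 0.697). Between the 2 ends the kinases themselves moved little: CDK4 read 154, 157 and 154 CPM against 146, 147 and 147 (-0.08 ± 0.045, adjusted p = 0.144), while CDK6 passed the test with overlapping groups (236, 260 and 233 against 249, 284 and 278 CPM; 0.15 ± 0.056, adjusted p = 0.0283) and lost its call in 5 of the alternatives tried, 4 of which left out vehicle replicate 1 or 3 or knockout replicate 2 or 3 (adjusted p 0.0938, 0.108, 0.149 and 0.0995; range over all alternatives 0.00119 to 0.149). The steps of CDK6 were opposite, 0.38 for the drug (adjusted p = 1.71e-05) and -0.23 for the knockout (adjusted p = 0.00465). Wild type on palbociclib read 312, 327 and 310 CPM. CDK4 had a drug step of -0.18 (adjusted p = 0.00254). Its knockout step was 0.10 (adjusted p = 0.0998, and 0.0388 with the set number as a block).

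RB1, encoding the retinoblastoma protein, fell from 80.0, 89.7 and 83.2 to 62.4, 63.9 and 61.9 CPM (-0.43 ± 0.061). Its relative RBL1, encoding p107, fell (-0.86 ± 0.058), and RBL2, encoding p130, rose (0.50). Among the inhibitors, CDKN1A, encoding p21, rose from 178, 176 and 167 to 254, 283 and 261 CPM (0.62 ± 0.055), whereas CDKN1B, encoding p27 (-0.73 ± 0.054), and CDKN2C, encoding p18 (-0.74 ± 0.065), fell. CDKN2B encodes p15, an inhibitor of CDK4 and CDK6, and was nearly lost: the 3 vehicle libraries held 194, 363 and 251 reads and the 3 knockout libraries 2, 0 and 1. The 3 reads against 808 amount to 0.371% of the vehicle level (95% interval 0.0764 to 1.09%, counting error only), and wild-type cells on palbociclib held 196, 280 and 352 reads. Of the 5 tested genes within 500 kb of CDKN2B, 1 fell and 2 rose, with a median log2 fold change of 0.03.

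Genes of DNA replication under E2F control fell as a group. Of 55 tested members of the list, 49 fell, 2 rose and 4 did not pass the test, and the median log2 fold change was -0.48. The summed level of the list was 7320, 7320 and 7170 CPM on vehicle, 5640, 5750 and 5130 CPM in the knockout, and 4830, 4920 and 4430 CPM in wild type on palbociclib. The list's median was -0.64 in the drug step and 0.18 in the knockout step. E2F8, a repressor within the E2F family, fell from 27.1, 25.7 and 23.6 to 15.1, 14 and 12.5 CPM (-0.88 ± 0.091). GINS2, a subunit of the replicative helicase, fell from 82.0, 85.5 and 97.3 to 48.3, 50.4 and 47.2 CPM (-0.86 ± 0.061, adjusted p = 5.94e-10). In both genes all 3 knockout libraries were below all vehicle libraries. The members that rose were MCM5, a subunit of the MCM helicase ring (0.23 ± 0.054), and CCNE1, encoding cyclin E1 (0.36 ± 0.057). MCM5 read 261, 257 and 233 CPM on vehicle, 175, 172 and 162 CPM in wild type on palbociclib and 293, 309 and 278 CPM in the knockout.

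PCNA, the sliding clamp of the replication fork, had the largest decrease of the list, from 283, 289 and 311 to 143, 137 and 121 CPM (-1.14 ± 0.061). PCNA lies on chromosome 20p in a window whose genes had a median of -0.64; the part of the window in its decrease was not tested.

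Genes of G2 and mitosis fell, with 49 of 51 lower, none higher (by edgeR, also at an unadjusted p under 0.05, DESeq2 and limma-voom) and a median of -0.66 (drug step -0.57, knockout step -0.07). CCNA2, encoding cyclin A2, fell from 236, 226 and 248 to 140, 121 and 111 CPM (-0.93 ± 0.086, adjusted p = 1.84e-06), close to the wild-type libraries on palbociclib (141, 134 and 116 CPM). AURKB, the kinase of the chromosomal passenger complex, fell from 71.9, 65.0 and 68.9 to 42.3, 36.6 and 32.7 CPM (-0.88 ± 0.087). NCAPG, a condensin subunit, fell from 116, 114 and 121 to 72.5, 61.3 and 57.8 CPM (-0.87 ± 0.075). The kinetochore gene NUF2 had the largest decrease (111, 101 and 114 to 43.7, 36.7 and 32.1 CPM; -1.54 ± 0.10) and lies in a 1q window with a median of -0.61. HMMR and CDC25C were the members that did not pass the test (-0.26 and -0.14); with the set number as a block both did (adjusted p = 0.00822 and 0.0437). Within the list, 64.7% of members differed between sets, against 8.07% of all tested genes.

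A part of the promoters of these lists holds the motif of the factor known to act on such genes, and 1 of each kind is shown because the members fell together. Sequences are RefSeq's, build GRCh38.p14, 250 bases before to 50 after the annotated start (position 0), 5′ to 3′ on the gene's strand, with the motif in capitals on whichever strand it lies. GINS2 (chr16:85688905-85689204, minus strand) holds the E2F motif TTTCCCGC at -31 to -24, here read from the opposite strand. NCAPG (chr4:17810729-17811028, plus strand) holds the cell cycle homology region TTTGAA, bound by the MuvB complex, at -35 to -30.

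GINS2: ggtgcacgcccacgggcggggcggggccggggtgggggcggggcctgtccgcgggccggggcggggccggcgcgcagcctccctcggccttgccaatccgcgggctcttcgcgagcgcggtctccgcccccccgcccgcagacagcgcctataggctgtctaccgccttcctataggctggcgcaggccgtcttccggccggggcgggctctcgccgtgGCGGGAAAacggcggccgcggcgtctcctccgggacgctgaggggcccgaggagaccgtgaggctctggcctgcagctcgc

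NCAPG: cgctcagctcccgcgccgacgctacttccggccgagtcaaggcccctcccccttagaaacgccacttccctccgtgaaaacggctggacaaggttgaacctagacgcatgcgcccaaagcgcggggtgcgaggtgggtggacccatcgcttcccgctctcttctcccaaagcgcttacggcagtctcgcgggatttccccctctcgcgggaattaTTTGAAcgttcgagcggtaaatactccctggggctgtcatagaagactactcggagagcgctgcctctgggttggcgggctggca

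The E2F motif, TTTCCCGC or TTTGGCGC on either strand, was in 42.2% of the promoters matched for the replication list, against 3.35% of the 12374 promoters matched for all tested genes. TTTGAA was in 71.4% of the promoters of the mitosis list, against 10.3%. Within the replication list, 18 of 19 genes with the E2F motif fell, and 23 of 26 without it. In the mitosis list 29 of 30 with TTTGAA fell, and 11 of 12 without it. The motifs were chosen as those of the factors behind the lists. A higher share in a list therefore reflects how it was drawn up and is no result of these data. A match is a description of the letters, not a measured binding site.

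Replication-dependent histone mRNAs were the list with the lowest median, -1.05, with 18 of 26 tested members lower and none higher; by DESeq2 15 were lower, by limma-voom 18 and at an unadjusted p under 0.05 19, again with 0 higher. Of the 59 entries of the list the remaining 33 did not pass the filter on low counts. Several tested members were barely counted, among them H1-4, H2AC12 and H4C11, with vehicle means of 0.493, 0.342 and 0.402 CPM. Most members lie together on chromosome 6, in a window with a median of -0.23 to which they themselves contribute. This is short of the window threshold of 0.3 but past that of 0.2. The part of the window in their decrease was not tested. These mRNAs normally end without a poly(A) tail, so a poly(A) library holds only a part of them. H1-2, a linker histone gene, fell from 214, 195 and 198 to 37.2, 33.6 and 33.5 CPM (-2.54 ± 0.066, adjusted p = 3.69e-16). H2BC12 fell from 193, 158 and 145 to 57.5, 59.3 and 57.0 CPM (-1.51 ± 0.12), and H4C8 from 14.3, 12.3 and 14.7 to 4.27, 4.07 and 4.46 CPM (-1.68 ± 0.10). In each of these genes the groups were far apart. The summed level of the list was 593, 546 and 528 CPM on vehicle, 499, 464 and 409 CPM in wild type on palbociclib and 189, 184 and 190 CPM in the knockout. The median was -0.10 in the drug step and -0.67 in the knockout step, the reverse order to that of the replication list.

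Targets of the integrated stress response fell while the gene of its main factor hardly moved. Of 48 tested targets of ATF4 and CHOP, 29 fell and 6 rose, with a median of -0.32 (drug step 0.09, knockout step -0.31). ATF4, which is regulated mainly through its translation, read 593, 580 and 586 CPM on vehicle and 531, 548 and 561 CPM in the knockout (-0.10 ± 0.046, adjusted p = 0.0746). The groups did not overlap, and the call depended on the fit: the adjusted p was 0.0167 with the set number as a block and between 0.0167 and 0.231 over all alternatives. DDIT3, encoding CHOP, fell from 6.28, 6.14 and 8.04 to 3.95, 4.88 and 5.15 CPM (-0.55 ± 0.14, adjusted p = 0.0027).

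FUT1, encoding a fucosyltransferase, fell from 7.06, 7.86 and 9.22 to 1.39, 1.82 and 1.97 CPM (-2.22 ± 0.15, adjusted p = 3.46e-10). Its neighbour FGF21, encoding a hormone of the stress response, fell from 3.04, 4.37 and 4.07 to 0.721, 1.44 and 1.28 CPM (-1.74 ± 0.26, adjusted p = 5.85e-05). Both genes had every knockout library below every vehicle library. INHBE, encoding an inhibin subunit, rose in wild-type cells on palbociclib (3.27, 3.74 and 3.61 to 5.81, 6.09 and 7.18 CPM) and stood at 1.19, 1.5 and 1.23 CPM in the knockout, below both wild-type groups (-1.44 ± 0.16). CHAC1, encoding a glutathione-degrading enzyme, had the same order, from a vehicle mean of 15.2 CPM through 20.2 to 9.58 CPM (-0.66 ± 0.089). ASNS, the asparagine synthetase, read 4.73, 4.32 and 4.90 against 2.81, 2.43 and 3.46 CPM (-0.67 ± 0.14). TRIB3, a pseudokinase that feeds back on ATF4, fell (-1.17 ± 0.079) and lies in the 20p window with a median of -0.64.

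The members of the list that rose include KLHL24 (1.41 ± 0.22) and DDIT4 (0.85 ± 0.26), an inhibitor of mTORC1. Both already stood high in wild type on palbociclib (drug step 1.42 and 1.04). Among the amino acid transporters SLC7A5 fell (-0.50), as did SLC7A1 (-0.36), SLC1A5 (-0.35) and SLC3A2 (-0.30). In serine and one-carbon metabolism, MTHFD2 (-0.48) and PSAT1 (-0.39) fell, and PYCR1, of proline synthesis, rose (0.42).

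FUT1 and FGF21 lie head to head on chromosome 19, with 168 bases between the annotated genes, and their promoter windows share 265 bases. The motif of C/EBP-ATF dimers, TGATGNAA, occurs once in each window, and it is the same site, at 48755470 to 48755477. The window of FGF21 (chr19:48755274-48755573, plus strand) holds it at -54 to -47 and that of FUT1 at -119 to -112. AARS1, the alanyl-tRNA synthetase gene (chr16:70289457-70289756, minus strand), holds the motif at -187 to -180.

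FGF21: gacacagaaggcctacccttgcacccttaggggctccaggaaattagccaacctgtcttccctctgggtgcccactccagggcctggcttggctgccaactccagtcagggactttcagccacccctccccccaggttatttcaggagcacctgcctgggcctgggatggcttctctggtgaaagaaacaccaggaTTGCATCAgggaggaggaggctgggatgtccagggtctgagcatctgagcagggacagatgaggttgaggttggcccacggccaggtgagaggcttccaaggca

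AARS1: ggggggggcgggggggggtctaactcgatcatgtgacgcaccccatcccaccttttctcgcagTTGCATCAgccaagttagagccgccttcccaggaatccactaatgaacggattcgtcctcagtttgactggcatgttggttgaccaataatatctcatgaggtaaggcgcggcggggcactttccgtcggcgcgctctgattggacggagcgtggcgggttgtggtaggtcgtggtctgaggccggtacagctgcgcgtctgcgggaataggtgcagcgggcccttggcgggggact

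The motif was in 21.6% of the matched promoters of the stress response list and 33.3% of those of the aminoacyl-tRNA synthetases, against 1.9% of all tested genes. Of the 8 stress response genes with it, 7 fell, with a median of -0.51, and of the 29 without it, 17 fell, with a median of -0.20. FUT1 and FGF21 count as 2 of those 8 but share 1 site. Here too the motif was chosen as that of the factors behind the lists, so its higher share is no result of these data.

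The cytosolic aminoacyl-tRNA synthetases, which load tRNAs with amino acids, split: 10 of 18 fell and 4 rose, with a median of -0.18. AARS1 fell from 267, 262 and 243 to 194, 208 and 199 CPM (-0.36 ± 0.049, adjusted p = 3.69e-06). QARS1, for glutamine, rose from 269, 264 and 263 to 419, 438 and 429 CPM (0.69 ± 0.045), and its wild-type libraries on palbociclib read 307, 295 and 308 CPM. NARS1, for asparagine, had the largest decrease (-0.45 ± 0.046) and lies in a chromosome 18 window with a median of -0.41.

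The other kinases that can phosphorylate eIF2α did not move one way. EIF2AK1 (0.30) and EIF2AK4 (0.26) rose, and EIF2AK2 fell (-0.30). PPP1R15B, which guides a phosphatase to eIF2α, fell from 102, 94.5 and 96.5 to 66.9, 72.2 and 66.8 CPM (-0.51 ± 0.054). Over the 16 genes of this group, 4 rose and 8 fell, with a median of -0.03. The shares over all tested genes were 25.7% higher and 26% lower.

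The other arms of the ER stress response had small medians but more genes higher than lower. Over all tested genes 25.7% were higher and 26% lower, with a median of -0.01. Of 22 genes of the ATF6 arm and ER chaperones, 10 rose and 3 fell, with a median of 0.09; of 23 genes of the IRE1 and XBP1s arm, 10 rose and 5 fell, with a median of 0.11. HSPA5, encoding the chaperone BiP, fell (-0.28), from a mean of 932 to 769 CPM. CANX, encoding calnexin, rose from 25.6, 24.2 and 21.4 to 37.9, 38.4 and 36.9 CPM (0.67 ± 0.077). Its vehicle mean was only 23.7 CPM, and the treatment of reads in overlapping annotations is not given in the sources used here. ATF6 fell (97.5, 97.2 and 99.7 to 59.8, 57.0 and 55.8 CPM; -0.77 ± 0.050), in the 1q window with a median of -0.61. XBP1 fell slightly (-0.14). KDELR3, a receptor that returns proteins to the ER, rose from 49.1, 53 and 49.3 to 82.3, 84.5 and 79.8 CPM (0.70 ± 0.052).

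**Figure D2:**
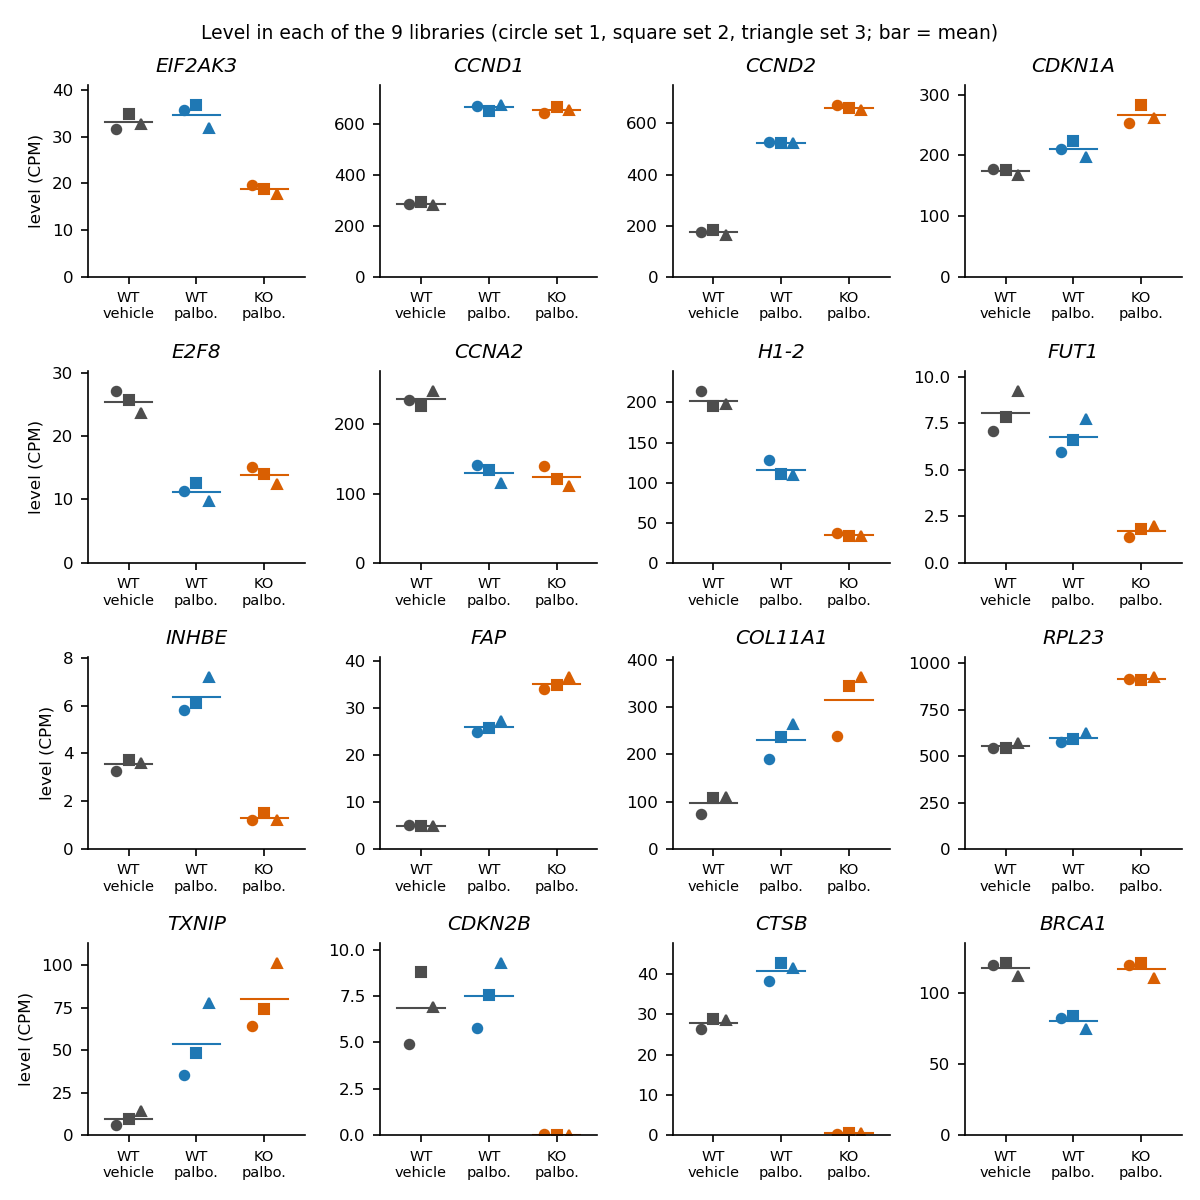
Level in CPM (y axis, from 0) of 16 genes in each of the 9 libraries, by group on the x axis, with a bar for the mean; circles, squares and triangles are sets 1, 2 and 3. CCND1 stands equally high in both palbociclib groups, H1-2 is lower still in the knockout, INHBE is highest in wild type on palbociclib, and BRCA1 in the knockout is near its vehicle level.

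Cytosolic ribosomal protein genes rose together. Of 73 tested, 63 rose and 3 fell, with a median of 0.25; the drug step had a median of 0.00 and the knockout step of 0.27. Their summed level was 47800, 47900 and 50700 CPM on vehicle, 47700, 49000 and 51700 CPM in wild type on palbociclib, and 60200, 60200 and 61200 CPM in the knockout. RPL23 rose from 545, 545 and 573 to 914, 913 and 925 CPM (0.73 ± 0.048, adjusted p = 1.74e-10). RPL22 rose from 28.2, 29.1 and 29.9 to 45, 46 and 49.7 CPM (0.69 ± 0.062). RPL6 fell (838, 815 and 822 to 666, 660 and 673 CPM; -0.31 ± 0.044), as did RPL17 and RPL36A. Many of these genes have processed pseudogenes that share their sequence, and how shared reads were assigned is not given in the sources used here.

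Factors that build ribosomes went the other way: 28 of the 37 ribosome biogenesis genes fell and 1 rose, with a median of -0.28 (drug step -0.21, knockout step -0.07). MRTO4, a factor of large subunit assembly, fell from 96.4, 90.5 and 87.3 to 53.3, 54.1 and 54.0 CPM (-0.76 ± 0.049, adjusted p = 1.42e-10). LYAR, a nucleolar protein gene, fell from 38.2, 33.9 and 30.8 to 20.1, 17.8 and 16.1 CPM (-0.93 ± 0.089), and NCL, encoding nucleolin, from 1230, 1210 and 1080 to 879, 897 and 829 CPM (-0.43 ± 0.056). NOP56, a core protein of box C/D ribonucleoproteins, had the largest decrease (-1.17 ± 0.051) and lies in the 20p window. POLR1D was the member that rose (0.36). The E-box CACGTG, the letters recognised by MYC and by TFEB, was in 32.3% of the matched promoters of this list and 27.6% of those of the lysosome list, against 9.47% of all tested genes. MRTO4 (chr1:19251555-19251854, plus strand) holds it at 14 to 19 after the start.

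MRTO4: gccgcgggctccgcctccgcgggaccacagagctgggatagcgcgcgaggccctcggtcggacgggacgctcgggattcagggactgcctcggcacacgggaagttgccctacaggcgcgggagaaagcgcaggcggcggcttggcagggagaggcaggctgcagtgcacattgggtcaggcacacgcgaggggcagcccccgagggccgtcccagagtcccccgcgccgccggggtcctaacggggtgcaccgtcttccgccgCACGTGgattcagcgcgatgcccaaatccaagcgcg

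Ribosome biogenesis genes with the E-box had a median of -0.34 (7 of 10 lower) and those without it -0.28 (18 of 21 lower), whereas lysosome genes had a median of 0.31 with the same letters (6 of 8 higher) and of 0.39 without them (15 of 21 higher).

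In mitochondria, 37 of 73 ribosomal protein genes fell and 10 rose (median -0.16), led outside the shifted windows by MRPL48 (36.8, 36.4 and 36.1 to 22.3, 19.9 and 19.9 CPM; -0.81 ± 0.063). Of 74 nuclear genes of the respiratory chain 18 were higher (24.3%) and 16 lower (21.6%), near the shares over all tested genes (25.7% and 26%), with a median of 0.05. SDHB, the iron-sulphur subunit of complex II, fell from 74.0, 70.1 and 74.6 to 50.7, 48.3 and 45.7 CPM (-0.60 ± 0.056). None of the 13 mRNAs encoded in mitochondrial DNA passed the edgeR test, and 0 did at an unadjusted p under 0.05, by DESeq2 or by limma-voom; the median was 0.15. Their summed level ranged from 28200 to 37400 CPM on vehicle and from 33000 to 40900 CPM in the knockout, so the groups overlapped, and with the set number as a block 6 rose and 1 fell. Proteasome genes fell (26 of 35 lower, 1 higher, median -0.28). PSMC6, an ATPase of the regulatory particle, went from 185, 190 and 202 to 130, 117 and 122 CPM (-0.64 ± 0.053).

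Genes of the lysosome rose, with 33 of 49 higher, 7 lower and a median of 0.39 (drug step 0.45, knockout step -0.06). SMPD1, acid sphingomyelinase, rose from 21.8, 22.0 and 22.4 to 43.6, 49.0 and 46.2 CPM (1.07 ± 0.057, adjusted p = 1e-11). NPC2, a cholesterol carrier of the lysosome, rose from 91.4, 100 and 111 to 185, 195 and 204 CPM (0.95 ± 0.083), and IDUA, which degrades glycosaminoglycans, from 3.62, 2.94 and 3.63 to 7.45, 8.12 and 9.65 CPM (1.31 ± 0.15). All 3 had knockout libraries above every vehicle library. PPT1, which removes palmitate from proteins, fell (-0.58 ± 0.049). CTSB, encoding the protease cathepsin B, was nearly lost: the vehicle libraries held 1043, 1197 and 1040 reads and the knockout libraries 14, 18 and 19, which is 1.56% of the vehicle level (95% interval 1.16 to 2.05%). In wild type on palbociclib CTSB rose (1299, 1585 and 1577 reads; drug step 0.54). It lies on chromosome 8 in a window with a median of -0.38, and of the 7 tested genes within 500 kb of it 2 fell.

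Autophagy genes followed, with 20 of 35 higher, 5 lower and a median of 0.18. WIPI1, which binds phosphoinositides on the forming autophagosome, rose from 12.7, 12.3 and 13.2 to 43.2, 44.1 and 47.3 CPM (1.82 ± 0.061, adjusted p = 1.24e-14). GABARAPL1, of the ATG8 family, rose from 38.8, 44.2 and 40.5 to 127, 136 and 129 CPM (1.66 ± 0.053). The cargo receptor NBR1 rose (1.07 ± 0.051), and so did BECN1, encoding beclin 1 (0.74 ± 0.050). In wild type on palbociclib WIPI1 and GABARAPL1 had means of 39.2 and 95.1 CPM.

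Collagen chain genes rose, with 16 of 25 higher, 2 lower and a median of 0.69 (drug step 0.55, knockout step 0.13). COL1A1, a chain of the main collagen of bone, rose from 2380, 2620 and 2400 to 3540, 5140 and 4900 CPM (0.88 ± 0.14, adjusted p = 0.00119). COL5A1 rose from 332, 373 and 355 to 801, 1060 and 1050 CPM (1.46 ± 0.12), COL4A1, of basement membranes, from 353, 406 and 367 to 693, 1020 and 977 CPM (1.25 ± 0.16) and COL11A1 from 74.0, 108 and 110.0 to 238, 345 and 363 CPM (1.70 ± 0.24). The knockout library of set 1 was the lowest of its group in each of these 4 genes, and 52.0% of the list differed between sets. COL16A1 fell, from 151, 160.0 and 166 to 62.7, 72.7 and 81.1 CPM (-1.14 ± 0.14). COL6A1 (1.22 ± 0.12) and COL6A2 (1.31 ± 0.084), which form collagen VI, lie together on chromosome 21 in a window with a median of 0.29.

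Other matrix genes rose as well, 18 of 31 against 3 lower (median 0.38). FBN1, encoding fibrillin 1, rose from 45.8, 58.5 and 46.9 to 127, 153 and 152 CPM (1.51 ± 0.098). SPARC, which binds collagen, rose from 1650, 1770 and 1770 to 2890, 3150 and 3200 CPM (0.83 ± 0.057). FN1, encoding fibronectin, rose from 691, 860.0 and 758 to 1100, 1450 and 1440 CPM (0.79 ± 0.13), and read 1470, 1710 and 1810 CPM in wild type on palbociclib (knockout step -0.32, adjusted p = 0.111, and 1.18e-07 with the set number as a block, being lower in all 3 sets). LAMA4, a laminin chain, rose from 1.14, 2.21 and 2.7 to 5.27, 7.19 and 8.80 CPM (1.82 ± 0.37). EMILIN1, a glycoprotein of elastic fibres, fell to 9.69% of the vehicle level (362, 441 and 374 reads to 43, 35 and 36; 95% interval 7.92 to 11.8%). Of 21 collagen-modifying enzymes 11 rose and 1 fell (median 0.42). ADAMTS2, which trims procollagen, rose from 17.6, 20.7 and 18.8 to 57.2, 74.2 and 70.8 CPM (1.82 ± 0.096), and CRTAP, of the prolyl 3-hydroxylase complex, from 220.0, 220.0 and 215 to 390.0, 375 and 372 CPM (0.80 ± 0.045).

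Secreted factors linked with senescence rose in 18 of 34 cases and fell in 5 (median 0.37). FAP, a surface protease of activated fibroblasts, rose from 5.06, 4.78 and 4.93 to 34.2, 34.9 and 36.6 CPM (2.84 ± 0.073, adjusted p = 1.58e-16), mostly in the drug step (2.40). IGFBP4, which binds insulin-like growth factors, rose from 16, 14.4 and 12.3 to 95, 96.1 and 84.0 CPM (2.68 ± 0.079), mostly in the knockout step (2.24). Both had groups far apart. MMP2, a gelatinase, rose from 236, 301 and 301 to 551, 618 and 609 CPM (1.09 ± 0.086). IL6 and CXCL8, cytokines of this list, were barely counted: IL6 had a mean of 0.222 CPM on vehicle and 0.492 in the knockout (1.14 ± 0.37, adjusted p = 0.0131), and CXCL8 of 0.470 and 0.298 CPM (-0.66, not called). LIF, a well counted cytokine of the IL-6 family, rose from 132, 125 and 133 to 133, 151 and 156 CPM (0.17 ± 0.060, adjusted p = 0.0211). Every knockout library lay above every vehicle library, but the nearest values both round to 133 CPM. Of 14 NF-kappaB feedback targets, 3 rose and 5 fell, where 25.7% of all tested genes rose and 26% fell. NFKBIZ rose from 25, 21 and 26.1 to 45.7, 59.4 and 64.8 CPM (1.24 ± 0.13), and NFKB1 fell from 58.4, 60.3 and 53.9 to 35.9, 34.1 and 34.6 CPM (-0.72 ± 0.057).

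Of 27 targets of p53, 17 rose and 2 fell (median 0.17). TP53INP1 rose from 20.2, 25.5 and 27.9 to 61.5, 64.7 and 76.3 CPM (1.46 ± 0.15), and ZMAT3, an RNA-binding protein gene, from 66.0, 66.6 and 58.1 to 116, 115 and 110.0 CPM (0.83 ± 0.059). MDM2, the ubiquitin ligase of p53, fell slightly (-0.15). BCL2, which protects from apoptosis, fell in both steps (14.9, 14.8 and 17.3 CPM on vehicle, 9.08, 9.27 and 7.45 in wild type on palbociclib, 4.55, 5.00 and 5.15 in the knockout; -1.67 ± 0.10), in a chromosome 18 window with a median of -0.43.

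No gene of cholesterol synthesis rose by edgeR, at an unadjusted p under 0.05, by DESeq2 or by limma-voom, and 18 of 23 fell, with a median of -0.48 (drug step -0.24, knockout step -0.11). MVK, mevalonate kinase, fell from 32.7, 27.9 and 25.2 to 17.4, 16.5 and 16.1 CPM (-0.78 ± 0.095). HMGCS1 and PMVK were among those that did not pass the test (0.07 and 0.11). Within this list 56.5% of members differed between sets. Of 25 NRF2 targets 8 rose and 10 fell (median -0.05), against 25.7% higher and 26% lower over all tested genes. AKR1C3, an aldo-keto reductase gene, read 5.97, 6.50 and 7.51 CPM on vehicle and 18.6, 14 and 13.7 CPM in the knockout (1.21 ± 0.13). SRXN1, sulphiredoxin, fell (-0.92 ± 0.11) in the 20p window.

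Of 35 genes of hypoxia and glycolysis, 13 rose and 5 fell (median 0.10). SLC2A1, encoding the glucose transporter GLUT1, rose from 135, 144 and 155 to 204, 232 and 233 CPM (0.63 ± 0.076), and ALDOC, an aldolase gene, fell from 6.76, 6.77 and 8.01 to 4.00, 4.10 and 4.93 CPM (-0.72 ± 0.14). ALDOA was counted at only 15 CPM on vehicle and HYOU1 of the chaperone list at 0.667 CPM; how reads in overlapping annotations were treated is not given in the sources used here. YAP and TEAD targets rose in 10 of 23 cases and fell in 4 (median 0.08), among them CCN1 (422, 353 and 348 to 543, 551 and 542 CPM; 0.54 ± 0.060) and F3, tissue factor, which fell in the drug step (-0.47) and rose in the knockout step (1.71), ending at 11.3, 10.6 and 9.77 CPM from 4.71, 4.22 and 4.46 (1.24 ± 0.11).

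Of 16 tested osteoblast regulators and markers 6 rose and 3 fell (median 0.09), against 25.7% higher and 26% lower over all tested genes. SP7 was at 0 in all libraries. RUNX2, the master regulator of osteoblasts, fell (-0.29), from a mean of 36.2 to 29.5 CPM. ALPL, alkaline phosphatase, rose from 2.33, 2.89 and 3.14 to 4.08, 5.40 and 5.62 CPM (0.85 ± 0.16). SPP1, osteopontin, passed by a margin that did not last (6.56, 4.76 and 4.13 to 15.4, 8.69 and 8.51 CPM; 1.08 ± 0.37, adjusted p = 0.0479). The call was lost in 10 of the alternatives (adjusted p 0.0524 to 0.138), 7 of which left out 1 library, namely any vehicle or knockout library or replicate 2 of wild type on palbociclib; over all alternatives SPP1 ranged from 1.18e-11 to 0.138.

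Of 23 interferon-stimulated genes 9 rose and 6 fell (median 0.13), against 25.7% higher and 26% lower over all tested genes. BST2, encoding tetherin, fell to 6.75% of the vehicle level (334, 332 and 283 reads to 15, 23 and 26; 95% interval 5.15 to 8.69%) and was higher in wild type on palbociclib (drug step 0.72). IFI44 fell from 8.10, 10.6 and 10.4 to 5.04, 5.11 and 5.38 CPM (-0.90 ± 0.12). Of 10 antigen processing genes 5 rose and 1 fell, with PSMB10, a subunit of the immunoproteasome, at 3.87, 3.13 and 2.92 CPM against 5.94, 5.23 and 4.65 (0.67 ± 0.14).

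Genes of handling and RNA quality were mixed. Among 20 immediate early and heat shock genes 5 rose and 8 fell (median -0.17), against 25.7% higher and 26% lower over all tested genes. EGR1 rose from 23.5, 25.8 and 27.6 to 42.4, 48.8 and 48.4 CPM (0.86 ± 0.098) and DUSP1 from 69.5, 50.9 and 50.7 to 88.9, 92.1 and 80.3 CPM (0.61 ± 0.12). Those that fell include NR4A1 (-0.56), HSP90AA1 (-0.46) and IER2 (-0.39). Of 7 nuclear retained RNAs, NEAT1 rose (656, 587 and 672 to 1550, 1210 and 1620 CPM; 1.20 ± 0.19), SNHG14 fell (76.3, 78.9 and 84.0 to 52.0, 52.6 and 58.6 CPM; -0.55 ± 0.058) and the others did not pass. With the set number as a block MALAT1 was called higher (0.44, adjusted p = 0.0536 without and 1.71e-06 with the block) and NKTR lower (-0.15, adjusted p = 0.107 without and 0.00396 with it). The part of RNA quality in the changes of other genes was not tested. Among 10 tested epithelial genes 5 fell and 1 rose. CLDN4 fell from 24.2, 21.4 and 23.3 CPM on vehicle to 13.4, 13.5 and 14.3 in the knockout (-0.74 ± 0.069), and EPCAM fell too (-0.50 ± 0.13). KRT8 (-0.17) and KRT18 (-0.25), the members with the highest levels, fell slightly, with drug steps of 0.45 and 0.36. The member that rose was CDH1, encoding E-cadherin (0.39, adjusted p = 0.0491), with a drug step of 1.16. Of 5 tested haematopoietic genes 1 rose. Of 8 tested endothelial genes 3 rose and 1 fell, ERG (-0.32 ± 0.13, adjusted p = 0.0425). ERG lost its call in 8 alternatives (adjusted p 0.0501 to 0.138, against 0.0127 to 0.138 over all), 5 of which left out vehicle replicate 1 or 2 or any knockout library.

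**Figure D3:**
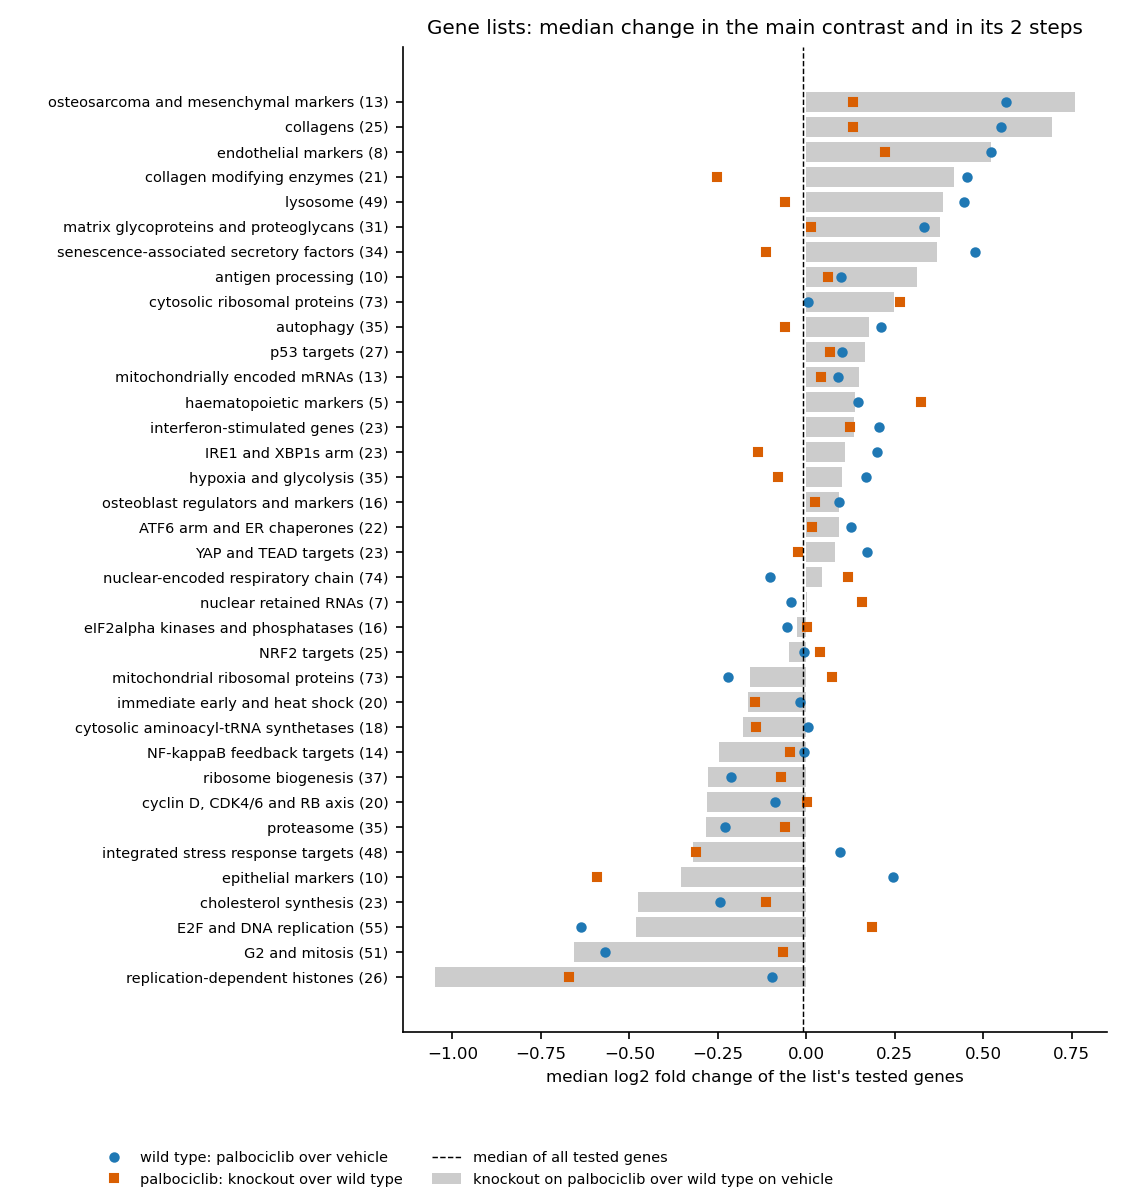
Median log2 fold change (x axis) of each gene list, with the number of tested genes in parentheses. Grey bars show the knockout on palbociclib over wild type on vehicle, blue circles the drug step, orange squares the knockout step, and the dashed line the median of all tested genes (-0.01). Replication and mitosis genes have low blue circles, whereas histones, stress response targets and ribosomal protein genes follow the orange squares.

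The 8 genes with the largest increases at 5 CPM or more were CXCL12, ART5, SLN, DAPP1, TXNIP, DSP, TIE1 and ARRDC4. CXCL12, a chemokine that draws cells with the receptor CXCR4, rose from 0.430, 0.267 and 0.165 to 4.17, 6.15 and 5.08 CPM (4.13 ± 0.25, adjusted p = 6.22e-11). Wild type on palbociclib stayed at 0.413, 0.404 and 0.579 CPM (drug step 0.68, adjusted p = 0.136). SLN, encoding sarcolipin, a small inhibitor of the SERCA calcium pump, rose in both steps, from 0.835, 1.04 and 1.29 through 2.77, 3.75 and 3.66 to 10.7, 12.5 and 11.3 CPM (3.44 ± 0.16). TXNIP, which binds thioredoxin and restrains glucose uptake, rose from 5.72, 9.17 and 14 to 64.4, 74.1 and 101 CPM (3.06 ± 0.44), and its relative ARRDC4 from 4.2, 5.19 and 5.56 to 27.8, 36.3 and 45 CPM (2.87 ± 0.30). In both genes and both groups, set 1 held the lowest value and set 3 the highest. DSP, encoding the desmosomal protein desmoplakin, rose from 0.759, 0.970 and 0.523 to 6.24, 7.19 and 5.67 CPM (3.06 ± 0.19). TIE1, an endothelial receptor kinase, rose from 0.810, 0.558 and 0.633 to 4.45, 5.34 and 5.74 CPM (2.95 ± 0.18). Other endothelial genes did not all follow. VWF (mean of 1.80 to 2.98 CPM, 0.72 ± 0.16) and PECAM1 (0.257 to 0.503 CPM, 0.97 ± 0.36) also rose. ERG, with the highest vehicle mean of the list, fell (6.18 to 4.97 CPM, -0.32 ± 0.13), by a call lost in some alternatives. TEK, CLDN5, ROBO4 and ESAM were not called. KDR, CDH5 and EMCN had means under 0.3 CPM in each of the 3 groups. CDH5 went from 0.295 on vehicle to 0.0354 CPM in the knockout, and KDR from 0.129 to 0.052. DAPP1, a signalling adaptor, rose from 0.835, 0.655 and 0.495 to 4.95, 6.90 and 7.02 CPM (3.23 ± 0.20). ART5, an ADP-ribosyltransferase gene, was the most spread (0.380, 0.558 and 0.550 to 2.53, 5.95 and 8.68 CPM; 3.52 ± 0.73, adjusted p = 0.00642).

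The 8 genes with the largest decreases were PAGE2B, CDKN2B, ZNF675, CTSB, BST2, GTSF1, ADD2 and RBPMS. PAGE2B, a cancer-testis antigen gene on the X chromosome, had 2060, 2297 and 2163 reads on vehicle, 2716, 3005 and 3310 in wild type on palbociclib and 6, 0 and 11 in the knockout, which is 0.261% of the vehicle level (95% interval 0.152 to 0.418%). Its close copy PAGE2, a neighbour on the same chromosome, rose (84.0 to 156 CPM on average; 0.90 ± 0.057), and how reads shared by both were assigned is not given in the sources used here. ZNF675, a zinc finger gene of chromosome 19, had 241, 226 and 211 reads on vehicle and 0, 2 and 2 in the knockout (0.590%; 95% interval 0.160 to 1.52%). GTSF1, a germline factor of the piRNA pathway, fell from 18.5, 20.9 and 22.5 to 1.27, 1.76 and 1.26 CPM (-3.86 ± 0.12). ADD2, of the membrane skeleton, fell to 7.36% (298, 311 and 234 to 23, 17 and 22 reads) and RBPMS, an RNA-binding protein gene, to 9.40% (216, 230.0 and 203 to 18, 22 and 21 reads). In all 8 the wild-type libraries on palbociclib stayed far above the knockout libraries. The surroundings of these genes differed: of 14 tested neighbours of RBPMS within 500 kb, on chromosome 8p, 12 fell, with a median of -0.66, whereas of 28 neighbours of BST2 7 fell and 8 rose, with a median of -0.05.

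Whole stretches of the genome moved in the knockout. Of 281 windows of 10 Mb with at least 20 tested genes, 15 had a median at least 0.3 from that of all genes, 3 upward and 12 downward. On chromosome 1, 69 of 92 genes between 160000001 and 170000000 fell (median -0.61), and on chromosome 20, 62 of 86 genes between 1 and 10000000 (median -0.64) and 27 of 37 in the next window (median -0.60). On chromosome 10, 25 of 40 genes between 130000001 and 140000000 rose and none fell (median 0.57). In each of these 4 windows the drug step had a median between 0.01 and 0.07, and the knockout step one of -0.63, -0.58, -0.59 and 0.57 respectively. Further shifted windows lay on chromosomes 8, 18 and 21 and elsewhere on 1 and 10. DNA copy number was not measured here. The count of windows depended on the threshold, with 42 at 0.2.

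**Figure D4:**
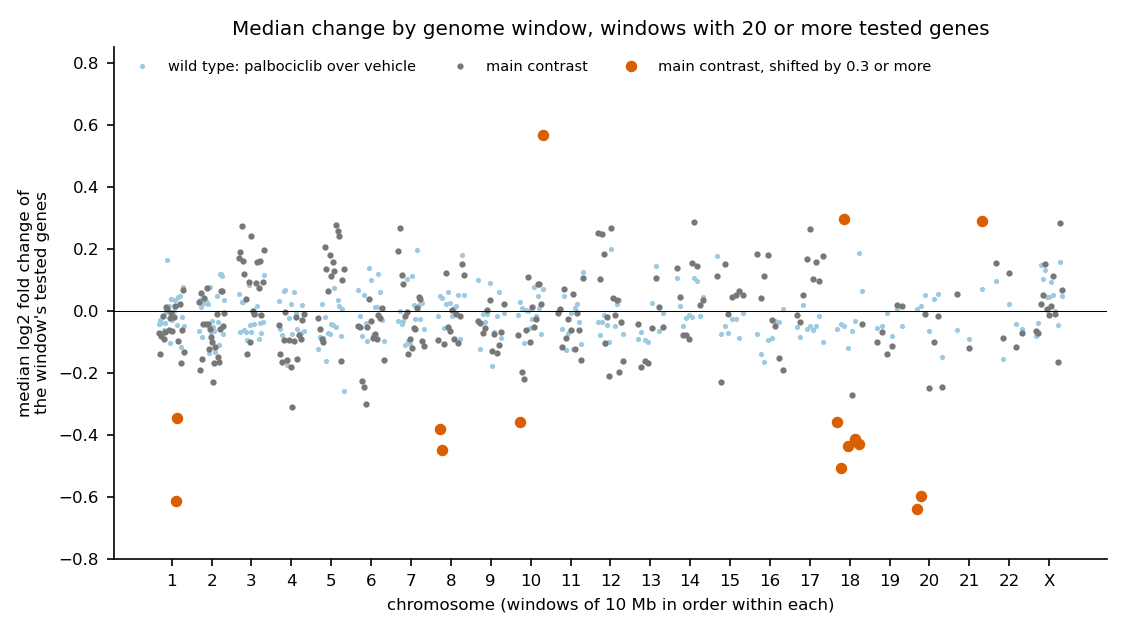
Median log2 fold change (y axis) of the tested genes in each of 281 windows of 10 Mb, in order within each chromosome (x axis). Grey points show the main comparison, orange points the 15 windows shifted by 0.3 or more, and light blue points the drug step in wild type, in which the same 15 windows lie between -0.12 and 0.19.

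The 4 shapes of the path from vehicle to knockout were followed with genes chosen by size. Genes that moved in the knockout step and not in the drug step include DLX4, a homeobox gene, which read 2.03, 1.82 and 2.06 CPM on vehicle, 2.36, 1.97 and 1.58 CPM in wild type on palbociclib and 9.10, 10.5 and 9.06 CPM in the knockout (2.28 ± 0.14). SBSN (1.51 ± 0.11) and INSYN2B (1.35 ± 0.16) did the same, and CDKN2B, ZNF675 and GTSF1 were the lowest of this kind. Genes that moved in the drug step alone include MXD4, which competes with MYC for MAX: 25.2, 32.5 and 32.1 CPM on vehicle, 133, 134 and 140.0 in wild type on palbociclib and 145, 156 and 158 in the knockout (2.35 ± 0.078). With the set number as a block its knockout step of 0.17 passed the test too (adjusted p = 0.00305, against 0.0872 without). CD163L1 (1.86 ± 0.21) and the pseudogene HNRNPA1P66 (1.81 ± 0.15) rose likewise. SAPCD2, a regulator of spindle orientation, fell from 78.6, 67.3 and 68.3 to 30.8, 28.7 and 26.3 CPM (-1.32 ± 0.067), close to the wild-type libraries on palbociclib (31.2, 29.5 and 29.9 CPM). CCDC144NL fell (-1.32 ± 0.056), and TNFAIP6 passed the test (-1.73 ± 0.51, adjusted p = 0.0277) but not in 7 of the alternatives (adjusted p 0.0514 to 0.0801, against 8.1e-16 to 0.0801 over all), 4 of which left out vehicle replicate 2 or 3 or knockout replicate 1 or 2.

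Genes that moved in both steps in 1 direction include CDA, cytidine deaminase, at 6.84, 5.60 and 5.01 CPM, then 14.3, 11.5 and 11.5, then 32, 32.3 and 30.0 CPM (2.43 ± 0.10). PTPN7, a tyrosine phosphatase gene, rose (2.57 ± 0.19), and EPB41L4B fell from 14.9, 17.1 and 18.5 through 10.4, 9.17 and 8.74 to 6.11, 5.00 and 4.77 CPM (-1.67 ± 0.11).

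The last shape cancels out in the main comparison. BRCA1, of homologous recombination, read 120.0, 121 and 112 CPM on vehicle, 82.8, 83.9 and 74.7 CPM in wild type on palbociclib and 120.0, 121 and 111 CPM in the knockout. Its main log2 fold change was -0.01 (95% interval -0.14 to 0.12), made of -0.55 in the drug step and 0.54 in the knockout step, both past the test. NES, encoding nestin, an intermediate filament protein, had steps of -0.57 and 0.56 (214, 232 and 221 CPM, then 152, 150 and 146, then 210.0, 238 and 213), and GPRC5B of -0.61 and 0.62. TAF13, a subunit of TFIID, was highest in wild type on palbociclib (43, 45 and 43.2 CPM, then 65.1, 63.6 and 60.3, then 44.5, 44.6 and 41.5), as were SLC1A3, a glutamate transporter gene, and SPIRE1, which lies in a chromosome 18 window with a median of -0.51. These 6 genes were chosen for the small size of their main value, which is therefore a description and not a test that both ends are alike.

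**Figure D5:**
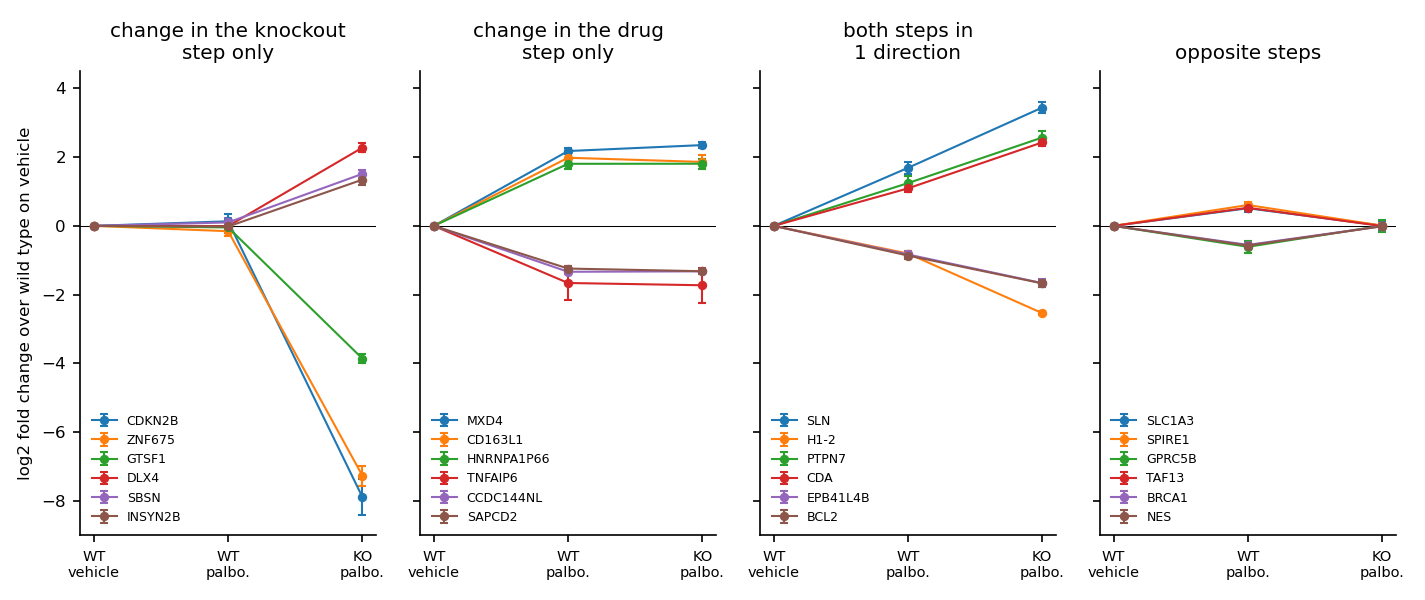
Log2 fold change over wild type on vehicle (y axis, with SE bars) of 24 genes across the 3 groups (x axis), 6 for each shape. The genes of the first panel differ in the knockout alone, those of the second have much the same level in the knockout as in wild type on palbociclib, those of the third move in both steps, and those of the last lie near 0 in the knockout.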

How the data were processed

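Messenger RNA was measured in 9 libraries by RNA sequencing. Per the labels' protocols, mRNA was caught on poly-T beads and copied with random primers; no step that keeps the strand is given. The deposited values are raw counts per gene, made by the authors and not normalized. The submitters' processing notes name STAR 2.7.9a, Trim Galore, FastQC, CASAVA and DESeq2, and build hg38; which counter and annotation were used is not given in the sources used here. Genes were placed by ID with GENCODE release 29 (58261 of 70116 IDs).

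All 9 libraries entered 1 edgeR model of 3 groups (edgeR 4.0.16, limma 3.58.1, DESeq2 1.42.0, R 4.3.3; Python 3.11.15, pandas 2.3.3, matplotlib 3.10.9), with the robust quasi-likelihood F test, TMM factors and the default filter, leaving 6 residual degrees of freedom. A gene was called at an adjusted p under 0.05 (Benjamini-Hochberg, 19408 genes). SEs were derived from the F statistic. The code was tested on simulated data. Totals ran from 33674039 to 42577874 counts, and 99.91% of counts lay in tested genes. Replicates differed by more than counting noise, with chi-square values of 3.45 to 10.7 per degree of freedom. Intervals of near-lost genes are exact binomial intervals of the knockout share of reads (95%), scaled to library size.

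Same-numbered libraries correlated at 0.175 to 0.539 in their deviations from group means (12907 genes), differently numbered ones at -0.401 to 0.07; the numbers were taken to pair them, from the data and not the labels. The alternatives were that block, the 6 compared libraries alone, other scalings and filters, each library left out, DESeq2 and limma-voom.

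The members, the 36 gene lists and the rules were chosen with earlier results of these data known, so lists are described by counts and medians, with no test. Named genes were 8 of the drug and PERK pathways (EIF2AK3, CDK4, CDK6, CCND1, RB1, CDKN1A, ATF4, DDIT3), the 8 highest and 8 lowest called genes with a mean of 5 CPM in a group, groups that do not overlap and a regular symbol, the 2 called members of each list with the largest change at that level, and 24 genes for the 4 shapes of the path. For the shapes, a step counted as absent when not called and under 0.2 in size; genes were ranked by the main value, by the smaller step, or, for opposite steps of at least 0.5, by the smallest main value. Promoters shown were among the 2 largest changes of motif holders outside shifted windows. Other genes named were chosen after their values were seen.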

Additional observations from a re-analysis of the deposited data

How the results depend on the processing

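With the set number as a block, 5551 genes rose and 5603 fell, 1199 and 583 of them at least 2-fold; among genes named by rule the block changed the main call of ATF4 alone, and of those named after their values were seen that of HMMR, CDC25C, MALAT1 and NKTR. Block values of the steps are given in the text where they change a call that is stated there. Leaving out 1 library gave 4466 to 5258 genes higher, 4548 to 5096 lower, 1100 to 1262 at least 2-fold higher and 528 to 618 at least 2-fold lower. With at least 10 counts required in every library, 765 genes rose and 273 fell at least 2-fold, since fewer genes were tested. A window threshold of 0.2 gave 42 shifted windows.

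Medians near 0 changed sign. That of the eIF2α kinases and phosphatases was 0.0008 with upper-quartile factors. That of nuclear retained RNAs was -0.0296 without TMM factors, and ranged from -0.0622 (without vehicle replicate 1) to 0.0349 with 1 library left out. That of NRF2 targets ranged from -0.1191 to 0.0579 with 1 library left out, and was above 0 without vehicle replicate 1 (0.0514) or knockout replicate 3 (0.0579). That of haematopoietic markers was -0.0306 with at least 10 counts in every library, and ranged from -0.0755 to 0.1381 with 1 library left out: it was -0.0021 without vehicle replicate 1, -0.0305 and -0.022 without replicates 2 and 3 of wild type on palbociclib, and -0.0357 and -0.0755 without knockout replicates 1 and 2. The cause was not tested. Over all alternatives, values of named genes kept direction and call in 1834 cases, lost the call in 30 and gained it in 4, and none reversed; 560 list medians stayed within their spread, 77 moved further and 11 reversed. Low levels, of 1 CPM and less, limit small changes.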

Other observations

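A search over all tested genes, with a rule chosen after values were seen, asked which genes with at least 100 reads over the 3 libraries of one group had at most 5% of that level in the other. It found 14 genes nearly lost in the knockout and 1 nearly absent on vehicle. TP73-AS1, an RNA gene beside TP73 on chromosome 1, had 234, 268 and 231 reads on vehicle, 689 in all in wild type on palbociclib and 0 in each knockout library, so that it was at least 244-fold lower (against 3 counts over the group). TCF15, a basic helix-loop-helix factor gene on 20p, went from 302 reads in all to 0 (at least 101-fold lower). ZNF93, a zinc finger gene of chromosome 19 that acts on retroelements, had 241 reads on vehicle, 284 in wild type on palbociclib and 1 in the knockout (0.415%), and the homeobox gene ALX4 had 466, 238 and 10 reads (2.15%). GAGE2A, a cancer-testis gene of a family of near-identical copies on the X chromosome, had 196, 169 and 9 reads. CHST15, a sulphotransferase gene, had 106, 90 and 1. MFHAS1 had 131, 74 and 6. Of the 14 genes, 10 are protein coding and 3 lie in shifted windows. The one gene with the reverse pattern was WDFY4, with 5 reads on vehicle, 39 in wild type on palbociclib and 123 in the knockout.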
